A study of Homo sapiens with 8 samples.

Results

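Interferon regulatory factors (IRFs) are transcription factors that share a tryptophan-rich DNA-binding domain and read GAAA repeats in the promoters of immune genes. The 9 genes described here are IRF1, IRF2, IRF3, IRF5, IRF7, IRF8 and IRF9 together with BATF2 and ETV7, named factors of the interferon response. They were taken by gene symbol from a table of 26372 genes, and each was found once. Their RNA was measured in 4 libraries of BE(2)-M17 cells given interferon-γ (IFN-γ) at 10 ng/ml for 24 h and in 4 libraries of untreated cells. BE(2)-M17 is 1 established human neuroblastoma line, so all 8 libraries share its genetic background. The question is which of these factors changed with IFN-γ, and to what level.

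IFN-γ binds a receptor coupled to the kinases JAK1 and JAK2, and the signal ends at a gamma-activated site (GAS) in target promoters, of which the IRF1 promoter is the textbook example. IRF1 then acts on further genes, IRF2 competes with it for the same sites, and IRF9 works with STAT2 in the complex ISGF3. IRF3, IRF5 and IRF7 are instead known as proteins that nucleic acid sensors switch on, while IRF8 is a lineage factor of blood cells.

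Values are FPKM, a level per length of transcript and per size of library, as the authors deposited them. Read from the steps between low values, 1 fragment in a transcript of 1 kb was worth about 0.0489 to 0.0714 FPKM. This puts depth near 14.0 to 20.4 M fragments per library. The labels give a target in reads, and fragments were read from both ends, so the units differ. Depth lay below that target in either unit. Changes are limma log2 changes, IFN-γ minus untreated, on a log2(FPKM + 0.1) scale that understates changes of low genes, with p-values adjusted over 13598 genes, those whose 8 libraries averaged 0.5 FPKM or more. The labels do not name separate cultures, so p-values measure the spread between libraries, which may be technical. IFN-γ replicate 4 stood apart: its variance against the other IFN-γ libraries was 3.38 to 3.86 times the counting variance, against 1.54 to 2.10 times in the other pairs of a group. Of all genes tested, 13.3% were called higher and 9.05% lower. The share of calls that were higher was 59.5%, and it was 36.4% with quantile normalization, 39.3% in TPM (each library rescaled to the same sum) without small RNA genes and 99.8% in TPM with them, where the median gene shifted by 0.79. The small RNA gene SNORD3A held 0% of the FPKM sum with IFN-γ and 5.97 to 57.9% untreated, and in TPM without small RNA genes the same 6 of the 9 genes were called higher.

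The cells carried noradrenergic neuroblastoma markers, of which 4 of 14 tested rose and none fell, also at an unadjusted p of 0.05 in limma, with a median change of -0.015. These counts moved with scaling: 3 were higher and 7 lower with quantile normalization, 3 higher and 5 lower in TPM without small RNA genes, 14 higher and 0 lower in TPM, and 5 higher and 3 lower without IFN-γ replicate 4. PHOX2A was at 196 ± 15.4 FPKM with IFN-γ and 151 ± 2.34 untreated (SD, n = 4 each), and HAND2 at 297 ± 4.82 FPKM with IFN-γ and 307 ± 2.62 untreated. Of 15 blood cell markers, 3 were tested and 1 fell, NCAM1, which neurons also make. Another 6 were listed at 0 in all 8 libraries, among them CD3E and MS4A1, and PTPRC was at most 0.0830. CD14 was at most 0.526 FPKM with IFN-γ and 0.520 untreated. The summed level of the list was 67.4 to 71.8 FPKM with IFN-γ and 79.3 to 80.7 untreated, and its genes other than NCAM1 were at most 1.12 FPKM in any library. NCAM1 fell by 0.19 on the log2 scale, and in TPM its change was 0.62 and did not pass the test. Beside the counts of both marker lists, 13.3% of all genes tested were called higher and 9.05% lower.

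The GAS match of the IRF1 promoter is shown because IRF1 had the largest change of the 9 genes, with that of IRF9 beside it. Promoters were 300-base windows of RefSeq on GRCh38.p14, from 250 bases before to 50 after an annotated start, and 5 of the 9 genes matched: IRF1, IRF5, IRF8, IRF9 and BATF2. IRF2, IRF3, IRF7 and ETV7 had no entry. The capitals mark TTCNNNGAA, which reads the same on both strands. The IRF1 bases are at chr5:132490833-132490952 on the reverse strand. The IRF9 bases are at chr14:24161192-24161221 on the forward strand, within the first exon of 1 GENCODE transcript that starts further upstream.
IRF1: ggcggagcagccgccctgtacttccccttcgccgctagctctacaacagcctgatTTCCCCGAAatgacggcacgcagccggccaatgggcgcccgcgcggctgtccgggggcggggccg
IRF9: accacgtgatTTCTGGGAAaaggccctccc

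The match ran from position -124 to -116 relative to the start of IRF1 and from -63 to -55 relative to that of IRF9. Of all 35116 promoter windows, 7.66% held TTCNNNGAA. None of the windows of IRF5, IRF8 and BATF2 held these letters. The windows of IRF8 (85902580 to 85903064) and BATF2 (64990228 to 64990527) lie inside the genes, at starts downstream of the outermost ones. The bases around the outermost GENCODE starts, 85898803 for IRF8 and 64997045 for BATF2, were therefore not searched. The tandem GAAANNGAAA was searched on both strands (TTTCNNTTTC on the other) as a simple form of the element that IRFs read. It was in 3.57% of all windows and in none of the windows of the 5 matched genes. A match is a description of letters and not a measured binding site.

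With IFN-γ, 6 of the 9 genes were called higher: IRF1, BATF2, IRF9, IRF7, IRF2 and IRF3, listed from the largest change to the smallest. These 6 were the genes above the FPKM filter, and the other 3 were not tested by limma. None was called lower by limma, also at an unadjusted p of 0.05. Over all genes tested, 13.3% were called higher and 9.05% lower. BATF2 passed the filter only through its IFN-γ values, so its passing already required a difference. In 7 of the 9 genes, IRF8 being the seventh, all 4 IFN-γ values lay above all 4 untreated ones, which held for 15.4% of all genes tested. The median change of the 6 was 2.39, beside -0.0047 for all genes tested. In IRF5 and ETV7 the groups overlapped. In bulk RNA, a change in the number of cells that make a transcript and a change in RNA per cell cannot be told apart. An exact two-sided permutation test of each gene gave p = 0.0286, the smallest that 70 arrangements allow, for those 7 genes, p = 0.914 for IRF5 and p = 0.114 for ETV7.

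**Figure D1:**
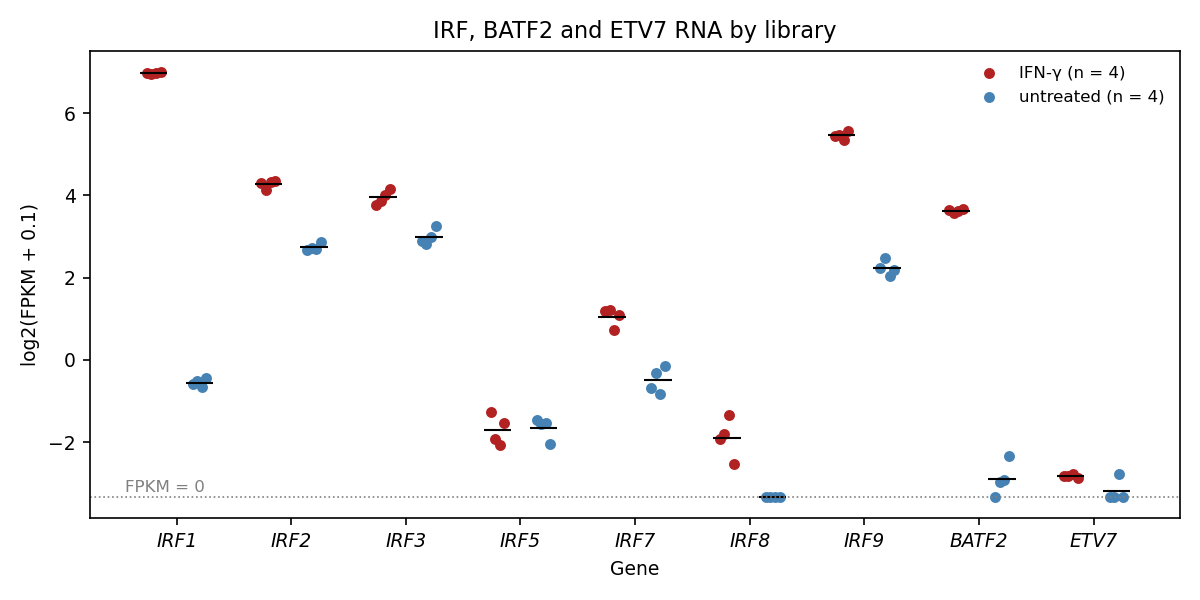
Level of each of the 9 genes in each library, as log2(FPKM + 0.1), with 4 IFN-γ libraries (red) left of 4 untreated ones (blue) and a bar at the group mean. The dotted line marks an FPKM of 0; IRF1, BATF2 and IRF9 show the widest gaps, and IRF5 and ETV7 overlap.

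IRF1, an activator that IFN-γ signalling induces directly, lies on chromosome 5 from 132481609 to 132490798 on the reverse strand (GENCODE 29, GRCh38). It was at 125, 123, 125 and 128 FPKM in the IFN-γ libraries and at 0.569, 0.596, 0.538 and 0.633 in the untreated ones. The lowest treated library was far above the highest untreated one. The means were 125 ± 2.14 FPKM with IFN-γ and 0.584 ± 0.0404 untreated (SD, n = 4 each), a ratio of 214, and limma gave a log2 change of 7.52 (SE 0.05, adjusted p = 6.89e-14). With IFN-γ it was the highest of the 9 genes, and in untreated cells it lay below IRF3, IRF2 and IRF9. The gene C5orf56 overlaps IRF1 by 7094 bp on the other strand. It was at 11.6, 11.7, 14.2 and 11.9 FPKM with IFN-γ, and untreated at 0.942 in replicate 2 and listed at 0 in the others. The kit named in the labels does not mark strand, so how fragments of the overlap were divided cannot be told from these values.

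IRF2, which binds the same elements as IRF1 and is known chiefly as its antagonist, also rose, by a smaller factor. It lies on chromosome 4 from 184387713 to 184474580. Its FPKM was 19.5, 17.5, 19.9 and 20.3 with IFN-γ and 6.29, 6.48, 6.43 and 7.22 untreated, with no overlap. The mean ratio was 2.92, and the log2 change was 1.53 (SE 0.06, adjusted p = 3.68e-08). In each library FPKM, a per-length level, put IRF1 at 6.29 to 7.02 times IRF2 with IFN-γ and at 0.0837 to 0.0919 times IRF2 untreated. The order of activator and antagonist RNA was therefore opposite in the groups, in every library.

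IRF9 is the DNA-binding subunit with which ISGF3 recognises interferon-stimulated response elements. The gene lies on chromosome 14 from 24161053 to 24166565. It was at 43.3, 44.1, 40.9 and 47.3 FPKM with IFN-γ and at 4.62, 5.46, 4.03 and 4.43 untreated. Every treated library was above every untreated one, by a mean ratio of 9.47 and a log2 change of 3.22 (SE 0.09, adjusted p = 1.10e-09). Its partner STAT2 rose to 49.5 ± 2.25 FPKM with IFN-γ, against 5.96 ± 0.312 untreated (log2 change 3.03, adjusted p = 3.31e-11). IRF9 RNA stood at 0.801 to 1.02 times STAT2 RNA with IFN-γ and 0.729 to 0.872 times untreated, so the ratio of these levels overlapped between groups while both genes rose.

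IRF3 and IRF7 are the factors that sensors of viral nucleic acid activate through the kinase TBK1, and the type I interferon genes are their known targets. IRF3, on chromosome 19 from 49659569 to 49665875, was at 13.6, 14.5, 15.9 and 17.8 FPKM with IFN-γ and 7.35, 6.996, 7.81 and 9.52 untreated. The groups were apart, and replicate 4 was the highest library of each. The mean ratio was 1.95 and the log2 change 0.96 (SE 0.11, adjusted p = 1.10e-04), and it was 1.76 in TPM, where the median of all genes shifted by 0.79. BCL2L12 overlaps IRF3 by 734 bp on the other strand and was not called, at 4.48 ± 0.793 FPKM with IFN-γ and 4.20 ± 0.537 untreated (adjusted p = 0.698).

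IRF7 was the lowest of the 6 called genes with IFN-γ. It lies on chromosome 11 from 612553 to 615999, and was at 2.18, 2.23, 1.55 and 2.03 FPKM with IFN-γ and 0.523, 0.703, 0.467 and 0.799 untreated. Every treated library lay above every untreated one. The mean ratio was 3.21 and the log2 change 1.55 (SE 0.19, adjusted p = 1.75e-04), or 0.88 with a pseudocount of 1. By the longest annotated transcript these values stand for roughly 52.5 to 85.1 fragments with IFN-γ and 15.5 to 27.8 untreated, in each group fewer than for the other called genes, except untreated BATF2.

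IRF5, which MYD88 signalling activates in myeloid and B cells, showed no separation of the groups. It lies on chromosome 7 from 128937612 to 128950035, and was at 0.314, 0.165, 0.140 and 0.246 FPKM with IFN-γ and 0.261, 0.241, 0.244 and 0.142 untreated. These values are some 6.92 to 17.3 fragments with IFN-γ and 6.91 to 13.9 untreated, a depth that could not show a small change. IRF5 lay below the filter, and without a filter limma gave a log2 change of -0.04 (SE 0.22, adjusted p = 0.936).

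IRF8, a factor of macrophage, dendritic cell and B cell development, appeared only at a low level. It lies on chromosome 16 from 85898803 to 85922609. It was at 0.162, 0.187, 0.295 and 0.0734 FPKM with IFN-γ, some 4.54 to 14.7 fragments per library, and was listed at 0 in all 4 untreated libraries. It was below the filter, and without one limma gave a log2 change of 1.42 (SE 0.23, adjusted p = 0.00268). No ratio is given against a group listed at 0. The blood marker PTPRC was at 0.0464 to 0.0830 FPKM with IFN-γ and 0.0117 to 0.0473 untreated, and any part of blood cell RNA in the IRF8 values was not tested.

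BATF2 encodes a basic leucine zipper protein that pairs with JUN proteins and is known to work with IRF1 in macrophages. It lies on chromosome 11 from 64987943 to 64997045. It was at 12.4, 11.9, 12.2 and 12.6 FPKM with IFN-γ and at 0, 0.0276, 0.0328 and 0.0975 untreated. By the longest transcript, the untreated values above 0 stand for roughly 1.36, 1.36 and 4.09 fragments, against 426 to 663 fragments with IFN-γ. The log2 change was 6.52 (SE 0.19, adjusted p = 1.98e-09) and followed the pseudocount, at 3.68 with 1 and 8.41 with 0.01. With IFN-γ its level lay between those of IRF3 and IRF7.

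ETV7, an ETS-family repressor known as an interferon-induced gene in other human cells, was at the limit of detection in all 8 libraries. These data therefore do not show whether it was induced by a small amount. It lies on chromosome 6 from 36354091 to 36387800. It was at 0.0415, 0.0423, 0.0465 and 0.0375 FPKM with IFN-γ. Untreated, it was at 0.0459 in replicate 3 and listed at 0 in the other 3 libraries. Each value above 0 stands for roughly 1.05 to 1.36 fragments by the longest transcript, so a small difference could not be detected at this depth. A rise to the 426 to 663 fragments of BATF2 with IFN-γ would have been seen and was not. Without a filter limma gave a log2 change of 0.37 (SE 0.15, adjusted p = 0.156).

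The shares of IRF1, IRF2, IRF3, IRF5, IRF7 and IRF8 in IRF RNA did not overlap between the groups. A share depends on every gene of the sum, and IRF2, IRF3 and IRF7 held lower shares with IFN-γ although their levels rose. The 7 IRF genes summed to 201 to 216 FPKM per library with IFN-γ and 19.5 to 22.7 untreated. IRF1 held 59.3 to 61.4% of that sum with IFN-γ and 2.76 to 2.91% untreated. IRF3 held 6.64 to 8.26% with IFN-γ and 34.2 to 41.9% untreated, and IRF2 8.68 to 9.75% with IFN-γ and 31.6 to 33.0% untreated. IRF7 held 0.762 to 1.11% with IFN-γ and 2.39 to 3.51% untreated. IRF5, whose levels overlapped between the groups, held 0.069 to 0.154% with IFN-γ and 0.623 to 1.33% untreated. IRF8 held 0.034 to 0.145% with IFN-γ and 0% untreated. The share of IRF9 was 20.1 to 21.9% with IFN-γ and 19.5 to 26.7% untreated, which overlap. With IFN-γ the order of levels was IRF1, IRF9, IRF2, IRF3, BATF2, IRF7, IRF5, IRF8 and ETV7, in which the ranges of IRF2 and IRF3, and of IRF5 and IRF8, overlapped. Untreated, it was IRF3, IRF2, IRF9, IRF7, IRF1, IRF5, BATF2, ETV7 and IRF8, with overlap between IRF3 and IRF2, between IRF7 and IRF1, and among the last 3.

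**Figure D2:**
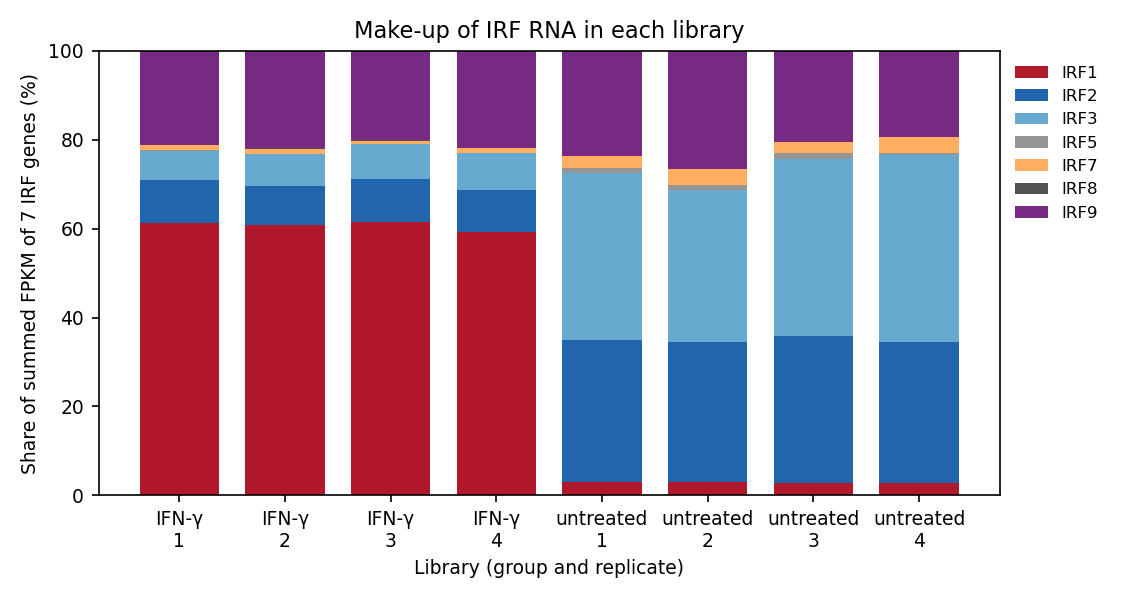
Share of each IRF gene in the summed FPKM of the 7 IRF genes, as a percentage, in 4 IFN-γ and 4 untreated libraries. IRF1 fills 59.3 to 61.4% of each IFN-γ bar and 2.76 to 2.91% of each untreated one, where IRF2 and IRF3 fill most.

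Relatives outside the 9 genes did not all follow. IRF4, a lymphocyte IRF, was at most 0.0126 FPKM with IFN-γ and 0.0277 untreated. Of 6 tested relatives of BATF2 and ETV7, 2 rose and 2 fell, with a median change of -0.13. The shares over all genes tested were 13.3% higher and 9.05% lower. BATF3, a partner of IRF8 in dendritic cells, was at 6.23, 7.06, 8.38 and 6.59 FPKM with IFN-γ and 1.38, 1.23, 0.773 and 0.923 untreated (log2 change 2.63, SE 0.17, adjusted p = 1.35e-06). ETV6, the closest relative of ETV7, rose slightly to 7.62 ± 0.481 FPKM, against 6.26 ± 0.0939 untreated (log2 change 0.28), a call lost in TPM without small RNA genes (adjusted p = 0.18). ETV4 and ETV1 fell by 0.49 and 0.43 on the log2 scale. The changes of ETV4 and ETV1 were 0.31 and 0.37 in TPM, without passing the test, where the median gene shifted by 0.79.

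Upstream of IRF1, 6 of 10 tested genes of the IFN-γ pathway rose and none fell, also at an unadjusted p of 0.05. The feedback inhibitors SOCS1 and SOCS3 rose by 6.67 and 1.58 on the log2 scale, and the kinase gene JAK2 by 3.43. SOCS1 passed the filter only through its IFN-γ values. JAK1 rose by 0.16, and its adjusted p passed the threshold no longer when any 1 of IFN-γ replicates 1 and 2 and untreated replicates 1 and 2 was left out, at 0.0515 to 0.073, nor with quantile normalization (0.142) or TPM without small RNA genes (0.475). Of 11 tested DNA-binding partners and coactivators, 4 rose, among them STAT2, STAT3 and JUN. STAT3 was at 76.3 ± 2.41 FPKM with IFN-γ and 30.1 ± 1.55 untreated, and JUN, a known partner of BATF proteins, at 10.7 ± 0.459 FPKM with IFN-γ and 8.42 ± 0.545 untreated. None fell, with 1 lower at an unadjusted p of 0.05, JUNB, and 1 partner gene was called lower with quantile normalization, in TPM without small RNA genes and without IFN-γ replicate 4. The median changes of the pathway and partner lists were 0.35 and 0.004. Beside the counts of both lists, 13.3% of all genes tested were called higher and 9.05% lower.

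Of 13 tested kinases and adaptors that activate IRF3, IRF5 and IRF7, 3 rose and 1 fell, with a median change of 0.04. Over all genes tested, 13.3% were called higher and 9.05% lower, so these counts lay near the shares of any gene. MYD88, the adaptor of Toll-like receptors, was at 9.71 ± 0.423 FPKM with IFN-γ and 5.27 ± 0.156 untreated (log2 change 0.87). TBK1, the kinase of IRF3, was at 21.2 ± 0.942 FPKM with IFN-γ and 16.1 ± 0.746 untreated (log2 change 0.39). TANK rose by 0.27, and leaving out IFN-γ replicate 3, or any 1 of untreated replicates 1, 2 and 4, put its adjusted p at 0.0629 to 0.0878. Of 19 alternatives, 8 ended that call. AZI2, an adaptor of TBK1, fell by 0.23, while in TPM its change was 0.57 and did not pass the test. The other kinase of this step, IKBKE, was at most 0.0207 FPKM with IFN-γ and 0.0177 untreated.

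Of 10 genes that restrain IRFs or tag them with ubiquitin, 4 rose, with a median of 0.07, beside 13.3% of all genes tested. None fell, also at an unadjusted p of 0.05, beside 9.05% of all genes tested, and 1 was called lower with quantile normalization. TRIM21, a ubiquitin ligase of several IRFs, was at 15.0 ± 1.33 FPKM with IFN-γ and 0.990 ± 0.192 untreated (log2 change 3.81). RBCK1 and RNF31, subunits of the linear ubiquitin ligase, rose by 1.11 and 0.71, and TRAF6 by 0.32. Leaving out any 1 IFN-γ replicate, or untreated replicate 1 or 2, put the adjusted p of TRAF6 at 0.0524 to 0.102, and 10 of 19 alternatives ended its call. The co-repressor genes IRF2BP1, IRF2BP2 and IRF2BPL were not called.

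Interferon genes themselves were near or at 0. Of 22, 17 were listed at 0 in all 8 libraries. IFNK, an interferon of keratinocytes, was the highest, at 0.466 ± 0.207 FPKM with IFN-γ and 0.673 ± 0.116 untreated (adjusted p = 0.203). The other 21 were at most 0.128 FPKM in any library. IFNB1, the classical product of IRF3 and IRF7, had a value above 0 in 1 library of each group, at 0.0842 with IFN-γ and 0.0805 untreated. No interferon gene was called higher, also without a filter, and at this depth a small rise from near 0 could not be detected.

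All 17 tested genes of 20 with textbook links to IRF1 rose, with a median change of 6.03, and all 19 tested of 20 ISGF3 targets, with a median of 4.49. Of these, 9 IRF1 targets and 11 ISGF3 targets had untreated means under the filter. They passed it only through their IFN-γ values, so for them a rise was required. Beside the counts of 17 and 19, 13.3% of all genes tested were called higher. TAP1, the peptide transporter of antigen presentation, was at 353 ± 18.5 FPKM with IFN-γ and 0.131 ± 0.0636 untreated, and the GTPase gene GBP2 at 314 ± 7.67 FPKM with IFN-γ and 0.402 ± 0.108 untreated. PSMB9, an immunoproteasome subunit, was at 39.8, 37.5, 39.5 and 48.8 FPKM with IFN-γ and listed at 0 in all untreated libraries. GBP1, another GTPase gene, was at 546 ± 15.5 FPKM with IFN-γ and 0.0240 ± 0.0106 untreated. IFIT3 and IFI27, ISGF3 targets, were at 105 ± 1.96 and 214 ± 36.7 FPKM with IFN-γ, against 0.316 ± 0.0472 and 1.34 ± 0.568 untreated. The targets outside the tests were TNFSF10, NOS2, PTGS2 and MX1. PTGS2 was listed at 0 in all 8 libraries, and NOS2 overlapped between groups, at 0.131 ± 0.0370 FPKM with IFN-γ and 0.114 ± 0.0186 untreated. TNFSF10 also overlapped, at 0.0575 to 0.390 FPKM with IFN-γ and 0 to 0.0713 untreated, while MX1 did not, at 0.399 to 0.447 FPKM with IFN-γ and 0.0404 to 0.0694 untreated.

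**Figure D3:**
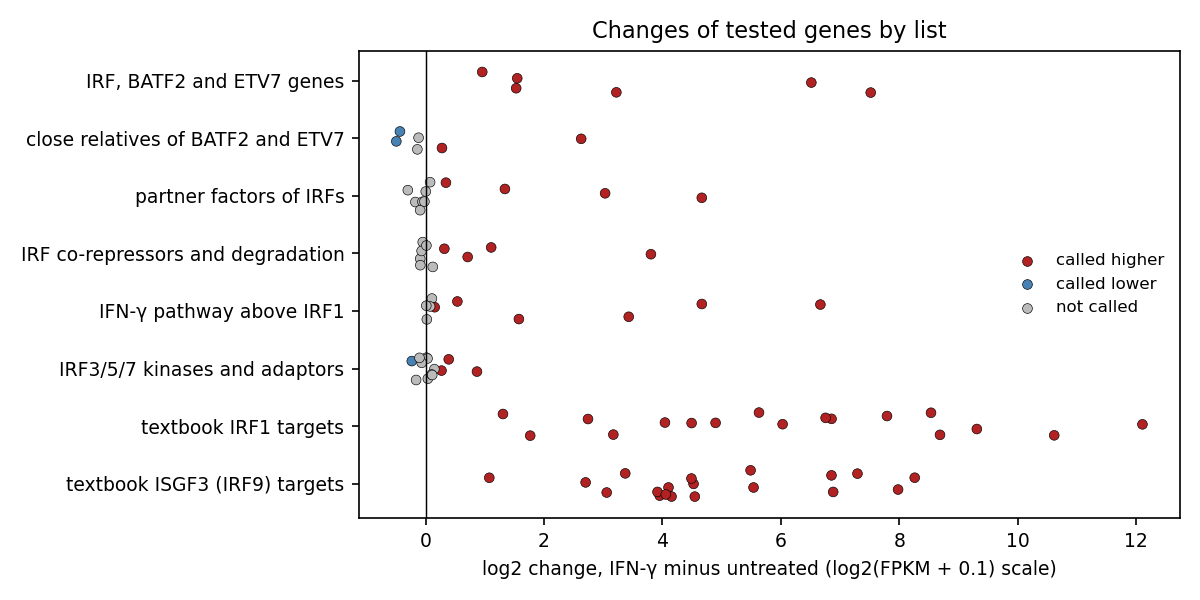
Log2 change, IFN-γ minus untreated, of each tested gene in 8 gene lists, 1 point per gene, with called rises in red, called falls in blue and others in grey. The 6 tested members lie between 0.96 and 7.52, and the IRF3, IRF5 and IRF7 kinases and adaptors have a median of 0.04, with MYD88 the highest at 0.87.

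For each called member with at least a 2-fold change, the most similar genes were taken by the root mean square difference of 8 log2 values, each set against the mean of the untreated libraries. This is a description over 8 libraries in 2 groups and mainly reflects size of change. IRF1 lay nearest to GBP3 (difference 0.25), APOL3 (0.26) and GBP5 (0.27). IRF9 lay nearest to PLSCR1 (0.09), PSMB10 (0.14) and IFIT1 (0.16), and BATF2 to TRIM22 (0.23), HLA-E (0.245) and ISG15 (0.30). IRF7 lay nearest to TDRD7 (0.19), TNNT2 (0.20) and IFI16 (0.21). IRF2 lay nearest to RAB27A (0.065), LRCH2 (0.08) and CD47 (0.09), genes whose means were 2.81 to 2.87 times as high with IFN-γ as untreated.

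**Figure D4:**
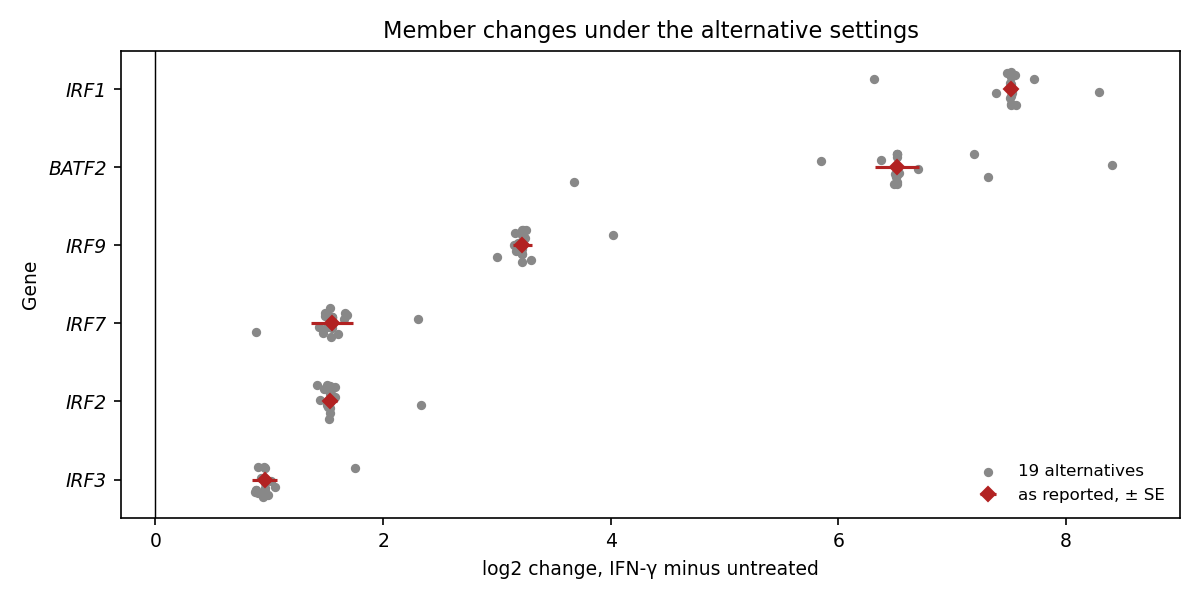
Log2 change of the 6 called genes as reported (red diamond, with its SE) and under 19 alternative settings (grey), IFN-γ minus untreated. All points lie above 0, and BATF2 has the widest range, from 3.68 to 8.41.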

How the data were processed

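Per the labels' protocols, total RNA of BE(2)-M17 cells was depleted of ribosomal RNA, made into libraries with a NEBNext Ultra kit, whose protocol does not mark strand, and read from both ends. The deposited file holds FPKM per gene and library. Per the submitters' processing notes, TopHat2, Cuffdiff and hg38 were used, with versions, options, annotation and scaling not given in the sources used here. Such values are relative, so 1 very abundant RNA can bear on all others. No counts were given, and count models were not used.

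Values were analysed as log2(FPKM + 0.1) by limma 3.58.1 in R 4.3.3 with a mean-variance trend, two-sided, with Benjamini-Hochberg adjustment over 13598 genes and a threshold of 0.05. The fit was tested on simulated data. The 9 genes, the gene lists and the tests were chosen with earlier results of these data known. Genes named beside the 9 were up to 4 called genes of each list by size of change, up to 2 of the highest where fewer than 2 were called, the 3 nearest by pattern, annotated neighbours and defining markers; IRF4, BATF3, IKBKE, IFNB1, JUNB, JAK1, HAND2 and the targets outside the tests were named after their values were seen. Some named items are not reported here. Positions came from GENCODE 29, in which 89.95% of symbols matched 1 gene, and promoters from RefSeq. Depth came from the mode of ratios of low FPKM between libraries and from genes with a single transcript, and is approximate. No pair of replicates agreed within counting noise, so each library was counted. The alternatives were pseudocounts of 1 and 0.01, no filter or 1 FPKM, 4 other scalings, limma without trend or robust, the replicate number as a block, and each library left out.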

Additional observations from a re-analysis of the deposited data

Results flagged for a closer look

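Of 17 groups of 4 values of the 9 genes, 2 had a library set apart by the Dixon limit, which chance passes in about 5% of groups of continuous values. IRF5 was at 0.142 FPKM in untreated replicate 4, against 0.241 to 0.261 in the other 3 untreated libraries. ETV7 was at 0.0459 FPKM in untreated replicate 3, roughly 1.32 fragments, and listed at 0 in the other 3. A single value beside 3 zeros always passes this limit, so the rate of chance does not apply to ETV7.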

How the results depend on the processing

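The 6 called genes kept direction and call in all 19 alternatives, as the same 6, with no filter adding IRF8. The highest adjusted p was 0.00102, for IRF7, and log2 changes ran from 6.32 to 8.29 for IRF1, 3.68 to 8.41 for BATF2, 3.00 to 4.02 for IRF9, 0.88 to 2.31 for IRF7, 1.42 to 2.33 for IRF2 and 0.87 to 1.76 for IRF3. Counts over all genes depended on scaling: 1809 were higher and 1230 lower, against 1142 higher and 1767 lower in TPM without small RNA genes, 1470 higher and 2564 lower with quantile normalization, and 9442 higher and 20 lower in TPM, where the small RNA gene SNORD3A held 0% of the FPKM sum with IFN-γ and 5.97 to 57.9% untreated. Leaving out 1 library gave 1484 to 2157 higher and 852 to 1698 lower, the highest of both without IFN-γ replicate 4. With the replicate block 1639 were higher and 1017 lower, and adjusted p was 0.0579 for JAK1, 0.051 for TANK and 0.071 for TRAF6. Deviations of same-numbered libraries correlated at -0.027 to 0.079. IFN-γ replicates 2, 3 and 4 each correlated best with the untreated library of their own number, at 0.079, 0.061 and 0.061. IFN-γ replicate 1 correlated best with untreated replicate 3, at 0.086. All these values are low, so whether the numbers mark pairs cannot be told. Depth limits ETV7, IRF5 and IRF8, which stand for roughly 0 to 17.3 fragments per library.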

Other observations

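Among the nearest annotated and tested genes beside the called members, changes were smaller than those of the members. RNF31, which ends 392 bp before IRF9 on the same strand, was at 10.1 ± 0.743 FPKM with IFN-γ and 6.10 ± 0.163 untreated (log2 change 0.71, limma adjusted p = 1.44e-05). REC8, 5288 bp beyond IRF9, rose by 0.27 on the log2 scale, a call lost in TPM without small RNA genes. PHRF1, 331 bp from IRF7, was not called, at 6.23 ± 1.06 FPKM with IFN-γ and 6.75 ± 0.355 untreated, and CDHR5 on its other side lay below the filter. Beside BATF2, ARL2 was at 43.1 ± 6.34 FPKM with IFN-γ and 33.6 ± 0.335 untreated (log2 change 0.35, limma adjusted p = 0.0144), with IFN-γ replicate 4 the highest at 52.4. SLC22A5, 85995 bp from IRF1, was at 5.44 ± 0.599 FPKM with IFN-γ and 3.71 ± 0.487 untreated (log2 change 0.54, limma adjusted p = 0.00614).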
